A study of Sus scrofa with 6 samples.

Results

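The 7 genes described here, HMGCS1, SQLE, FDFT1, FDPS, DHCR7, INSIG1 and SREBF2, belong to the cholesterol synthesis pathway and its control, and were taken by symbol from the table of 18007 genes of the series, which lists each of them once. RNA was sequenced from 3 lines of porcine embryonic fibroblasts (PEF5, PEF7 and PEF8) and from 3 lines of porcine induced pluripotent stem cells made from them (piPSC5, piPSC7 and piPSC8), with 1 library per line. The PEFs were grown from ear tips of E90 embryos (embryonic day 90) of a Meishan sow mated to a Large White boar (Longwhite in the labels). The piPSCs were derived with lentiviral Oct4, Sox2, Klf4 and c-Myc under a doxycycline-inducible promoter together with the M2rtTA transactivator, were picked as colonies, and were grown in LF2i medium on mouse embryonic fibroblast feeders. Reprogramming, transgenes, medium and feeders therefore changed together between the groups and cannot be told apart. Values are FPKM (fragments scaled by gene length and by the size of the library), and the deposited values let the fragments behind them be recovered, from totals of between 11010629 and 17836510 per library. The question was how these genes differ between PEFs and the genetically matched piPSCs.

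Cells make cholesterol from acetyl-CoA through mevalonate, farnesyl diphosphate, squalene and a series of sterols. When sterols in the endoplasmic reticulum are scarce, SCAP carries the transcription factor SREBP2 (the product of SREBF2) to the Golgi, where proteases release its active part, which raises transcription of the synthesis enzymes and of genes of cholesterol uptake. INSIG proteins hold SCAP in the endoplasmic reticulum when sterols are plentiful, and INSIG1 is itself a target of SREBP. Proliferating cells use the pathway to build membranes, and fibroblasts have long served to study it. Although the set is named for synthesis and uptake, none of the 7 genes takes up cholesterol, and uptake genes were read from a separate list.

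The libraries were checked against markers of their labels. Of 10 fibroblast markers, limma called 9 lower in piPSCs (adjusted p under 0.05) and none higher, and their summed level was between 4419 and 6419 FPKM in PEFs and between 130.2 and 223.3 in piPSCs. Of 9 pluripotency markers, POU5F1 and LIN28A were not analysed here. The other 7 summed to between 0.0703 and 0.202 FPKM in PEFs and between 2.96 and 9.16 in piPSCs, where SOX2 and LIN28B gave most of it. In piPSC5, piPSC7 and piPSC8, SOX2 had 288, 188 and 9 fragments and LIN28B had 204, 18 and 529. Neither was called by limma (adjusted p = 0.0626 and 0.0667). NANOG, SALL4, ESRRB, EPCAM and CDH1 reached at most 0.117 FPKM in any library, so most markers of the pluripotent label were at or near 0. Markers of endothelium, blood and cartilage summed to at most 2.57, 3.03 and 0.224 FPKM. The 3 analysed keratinocyte markers summed to between 3.04 and 3.34 FPKM in PEFs and to 5.28, 9.09 and 4.74 in piPSC5, piPSC7 and piPSC8. Of these, KRT10 was called higher in piPSCs (2.94 ± 0.182 against 4.95 ± 0.382 FPKM, limma adjusted p = 0.0291), and KRT14 and KRT5 had 278 and 101 fragments in piPSC7 against at most 62 and 5 in any other library. The 9 analysed proliferation genes were all higher in piPSCs, with sums of between 419 and 479 FPKM against 190.1 in PEF5, 40.8 in PEF7 and 58.6 in PEF8. The study describes its PEF lines as male, but the Y-linked gene DDX3Y had 3439 fragments in PEF8, 4207 in piPSC8 and 0 in the other 4 libraries. With line 8 left out, limma still called all 7 cholesterol genes lower in piPSCs.

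By position on Sscrofa11.1, HMGCS1 (ENSSSCG00000016872) lies at chr16:27936229-27957227, SQLE (ENSSSCG00000005970) at chr4:14667848-14700221, FDFT1 (ENSSSCG00000026044) at chr14:14967273-15104179 and FDPS (ENSSSCG00000006512) at chr4:94489208-94513941. DHCR7 (ENSSSCG00000021181) lies at chr2:2357714-2394851, INSIG1 (ENSSSCG00000016420) at chr18:2885494-2898914 and SREBF2 (ENSSSCG00000026092) at chr5:6716139-6784640. All are protein-coding. Some gene models of the deposited table are wider than those of RefSeq on the same build, and this bears on what their values count. The FDPS model covers 6310 bp of exons against 1563 bp in RefSeq, and its whole span lies within the model of RUSC1 on the same strand. How fragments shared by both genes were counted is not given in the sources used here, and FDPS had between 34 and 276 fragments and RUSC1 between 12 and 86 per library. The FDFT1 model covers 6502 bp against 3124 bp in RefSeq and spans CTSB, a lysosomal protease gene on the opposite strand. The DHCR7 model covers 5586 bp against 2418 bp and overlaps NADSYN1 on the opposite strand over 39.4% of its span. The library kit named in the labels does not mark strand. HMGCS1, SQLE and INSIG1 overlap no other gene of the table, and SREBF2 overlaps SHISA8, which had at most 5 fragments, over 226 bp.

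The promoters of the set were read from the RefSeq reference of Sscrofa11.1, in windows from 250 bases before to 50 bases from the 5′ end of each gene, and all 7 genes had one. They were searched on both strands for TCACNCCAC, a word of the sterol regulatory element (SRE) that SREBPs bind, for CCAAT, the box of the factor NF-Y, and for GGGCGG, a GC box of Sp1-type factors. The SRE word was found in 3 of the 7 promoters (HMGCS1, SQLE and SREBF2), and in 179 (0.916%) of 19534 promoters of protein-coding genes. A CCAAT box was found in all 7, against 35.4% of all promoters, and a GC box in 6, against 50.6%. No match of the SRE word or of CCAAT overlapped another motif, whereas some GC boxes overlapped each other. In the pathway lists used below, CCAAT was found in all 6 mevalonate enzymes searched and in 6 of 8 sterol enzymes, and the SRE word in 0 of both. CCAAT was found in 2 of 11 genes of sterol sensing, 3 of 10 of uptake, 3 of 7 of efflux and 4 of 9 of fatty acid synthesis. The 250 bases before the gene are shown for HMGCS1 and SREBF2, which hold the SRE word, and for INSIG1, which had the largest decrease and whose window does not hold it. Each is written 5′ to 3′ on the strand of the gene (the minus strand for all 3), with TCACNCCAC and CCAAT, the latter read as ATTGG where it lies on the other strand, in capitals.
HMGCS1, chr16:27957262-27957511: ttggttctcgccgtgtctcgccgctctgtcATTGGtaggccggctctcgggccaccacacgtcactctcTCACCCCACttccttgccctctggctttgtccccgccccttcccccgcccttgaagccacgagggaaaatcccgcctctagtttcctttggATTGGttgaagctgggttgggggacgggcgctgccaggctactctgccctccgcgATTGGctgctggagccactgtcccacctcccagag
SREBF2, chr5:6784725-6784974: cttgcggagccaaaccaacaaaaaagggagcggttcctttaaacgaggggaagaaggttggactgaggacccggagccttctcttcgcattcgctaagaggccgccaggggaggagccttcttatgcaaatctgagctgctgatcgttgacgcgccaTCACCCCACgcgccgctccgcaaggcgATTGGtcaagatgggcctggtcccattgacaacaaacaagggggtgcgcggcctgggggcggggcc
INSIG1, chr18:2898759-2899008: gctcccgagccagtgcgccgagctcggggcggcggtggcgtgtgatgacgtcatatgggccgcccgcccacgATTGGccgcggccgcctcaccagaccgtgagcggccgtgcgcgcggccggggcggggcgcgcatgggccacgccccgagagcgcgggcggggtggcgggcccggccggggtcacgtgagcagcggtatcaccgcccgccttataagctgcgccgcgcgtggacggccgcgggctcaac
The SRE word begins at position -181 in HMGCS1 and -93 in SREBF2, counted from the 5′ end of the gene, and reads TCACCCCAC in both. In HMGCS1 it lies between CCAAT boxes that begin at -220 and -90, with another at -35. In SREBF2 it is followed by a box at -66. INSIG1 has 1 CCAAT box, at -178, and 6 GC boxes. A match describes the letters of these windows and not a bound site, and binding was not measured in the data used here.

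**Figure D1:**
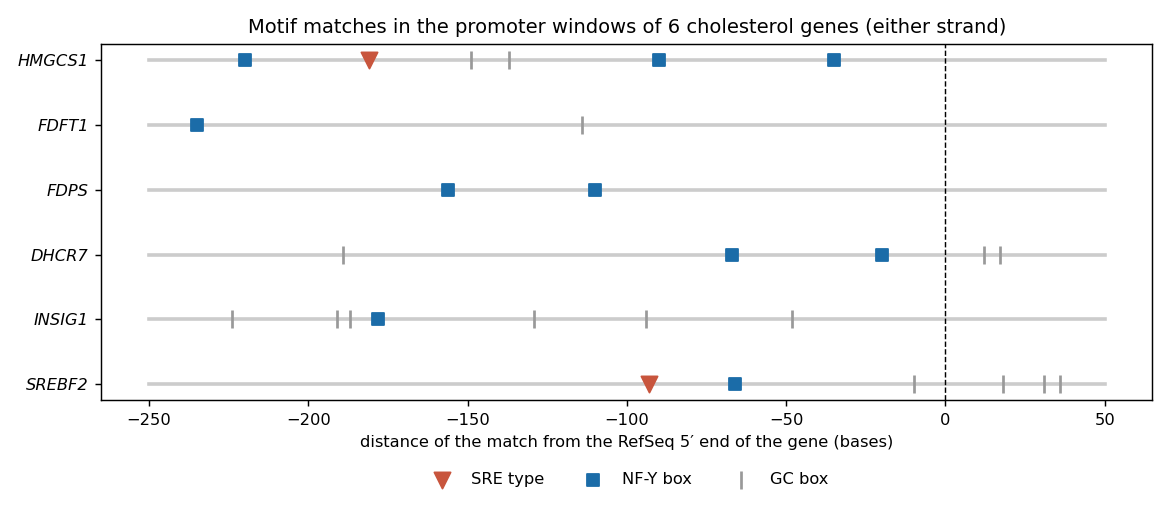
Positions of motif matches in the promoter windows of 6 of the 7 genes (all but SQLE), one row per gene, with the distance in bases from the RefSeq 5′ end of the gene on the x axis (dashed line at the 5′ end). Triangles mark the SRE word (HMGCS1 and SREBF2), squares CCAAT boxes (in every row) and ticks GC boxes (in every row but FDPS).

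All 7 genes were lower in piPSCs than in PEFs. In each of them the 3 PEF values lay above the 3 piPSC values, which was so for 26.8% of the 12428 genes tested, and limma gave each an adjusted p under 0.05, a call that 21.5% of all tested genes reached in this direction and 30.3% in the other. The set was proposed with results of these data known, so these counts describe it and do not test it. The median log2 fold change of the 7 genes was -1.19, against 0.20 over all tested genes. In lines 5, 7 and 8 the 7 genes summed to 272, 343 and 217 FPKM in PEFs, and to 113, 76.0 and 96.9 in piPSCs. Log2 fold changes are piPSC minus PEF on the scale of log2(FPKM + 1), and means are given ± SD over n = 3 lines. In bulk RNA, fewer cells that express a gene and less of its RNA per cell cannot be told apart. Of the markers above, 9 fibroblast genes fell, and the proliferation genes and KRT10 rose, with the same groups, and their part in these differences was not tested.

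**Figure D2:**
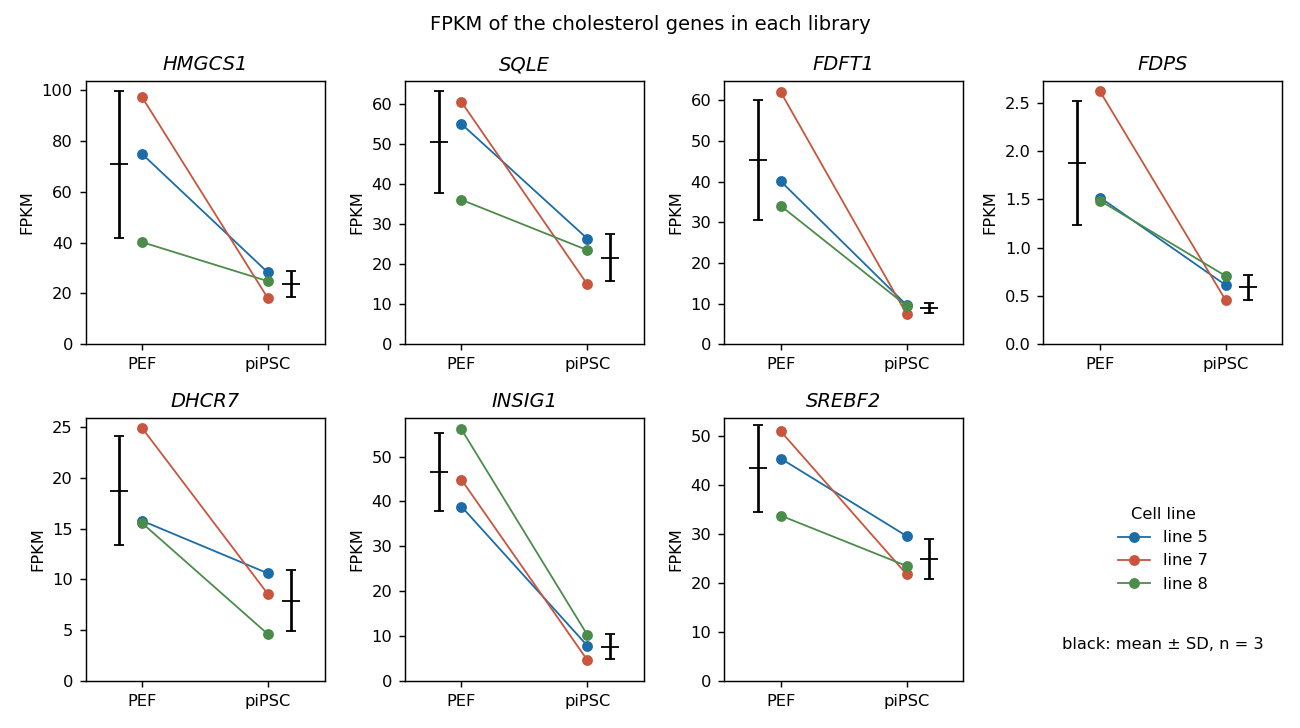
FPKM (y axis, from 0) of each of the 7 genes in PEF and piPSC libraries, with the libraries of 1 cell line joined by a line, and with the mean ± SD of each group (n = 3) in black. In every panel the 3 piPSC points lie below the 3 PEF points, and PEF7 is the highest PEF library in 6 of the 7 genes.

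Among the enzymes of the set, HMGCS1, which makes HMG-CoA, had the highest listed mean in PEFs. In lines 5, 7 and 8 it had 75.0, 97.3 and 40.2 FPKM as PEFs and 28.3, 18.1 and 24.8 as piPSCs. PEF8 was the lowest PEF library, yet lay above all piPSC libraries. The mean fell from 70.9 ± 28.8 to 23.7 ± 5.18, a 2.99-fold difference (log2 fold change -1.47, SE 0.344, limma adjusted p = 0.0125). FDPS, which makes farnesyl diphosphate, was listed at low values, of 1.52, 2.62 and 1.49 FPKM in PEF5, PEF7 and PEF8 and of 0.611, 0.453 and 0.705 in piPSC5, piPSC7 and piPSC8. These rest on 171, 276 and 142 fragments in PEFs and on 58, 34 and 49 in piPSCs, all of them on a model that lies within RUSC1, so the level of FDPS is not comparable with that of the other genes. The means differed 3.18-fold, and limma gave a log2 fold change of -0.83 (SE 0.245, adjusted p = 0.0279). A pseudocount of 1 shrinks the change of so low a gene, and with 0.1 it was -1.49, or -1.63 by voom on the fragments. The call was lost in 6 of 16 alternatives, among them the replicate block for lines, with an adjusted p of 0.0671.

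FDFT1 encodes squalene synthase, the first enzyme that commits farnesyl diphosphate to sterols. Its PEF values in lines 5, 7 and 8 were 40.1, 62.0 and 34.0 FPKM, and its piPSC values were 9.66, 7.46 and 9.46. The piPSC values were close to each other and far below the lowest PEF value. FDFT1 fell 5.12-fold, from 45.4 ± 14.7 to 8.86 ± 1.21 FPKM (log2 fold change -2.20, SE 0.249, limma adjusted p = 0.000929). CTSB, which the FDFT1 model spans, had 32193, 21736 and 16236 fragments in PEF5, PEF7 and PEF8 and 2827, 1868 and 1313 in the piPSC libraries, against between 3353 and 6742 and between 577 and 945 for FDFT1. Whether CTSB fragments entered the FDFT1 values was not tested. Among the PEFs, CTSB was highest in PEF5 and FDFT1 in PEF7.

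SQLE encodes squalene epoxidase, a rate-limiting oxygen-dependent step. The PEFs of lines 5, 7 and 8 had 55.1, 60.6 and 36.1 FPKM, and their piPSCs 26.4, 15.0 and 23.5. The groups did not overlap, and the mean fell from 50.6 ± 12.8 to 21.6 ± 5.93 (log2 fold change -1.19, SE 0.282, limma adjusted p = 0.013). DHCR7, which reduces 7-dehydrocholesterol to cholesterol in a last step of the pathway, had 15.8, 24.9 and 15.5 FPKM in PEF5, PEF7 and PEF8, and 10.6, 8.55 and 4.60 in piPSC5, piPSC7 and piPSC8. It was the 1 member whose lowest piPSC library was piPSC8. Its mean fell from 18.7 ± 5.34 to 7.91 ± 3.04 FPKM (log2 fold change -1.18, SE 0.325, limma adjusted p = 0.0225), and without PEF7 the adjusted p was 0.0723. NADSYN1, which overlaps DHCR7, was at 1.81, 6.03 and 7.73 FPKM in the PEFs of lines 5, 7 and 8, and at 10.3, 10.8 and 6.98 in the piPSCs of the same lines, higher than the PEF value in lines 5 and 7 and lower in line 8.

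The 2 regulators stood at opposite ends of the set. INSIG1, which retains SCAP in the endoplasmic reticulum, had 38.9, 44.9 and 56.1 FPKM in the PEFs of lines 5, 7 and 8, and 7.87, 4.67 and 10.3 in their piPSCs. It was the 1 member that was highest in PEF8 among the PEFs. The mean fell 6.12-fold, from 46.6 ± 8.75 to 7.62 ± 2.82 (log2 fold change -2.51, SE 0.286, limma adjusted p = 0.000944), and 5.81% of tested genes had a lower fold change. SREBF2 had 45.4, 51.0 and 33.7 FPKM in PEF5, PEF7 and PEF8, and 29.6, 21.8 and 23.5 in piPSC5, piPSC7 and piPSC8. Its groups came closest to each other, with PEF8 just above piPSC5, and the mean fell 1.74-fold, from 43.4 ± 8.79 to 24.9 ± 4.10. This was the smallest change of the set (log2 fold change -0.77, SE 0.207, limma adjusted p = 0.0211). The adjusted p was between 0.0553 and 0.0656 when PEF5, PEF7, piPSC7 or piPSC8 was left out. Without PEF7, 4 of the 7 genes kept an adjusted p under 0.05, namely HMGCS1, SQLE, FDFT1 and INSIG1.

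FPKM divides by the length of the gene model, and the models of the table exceed those of RefSeq unevenly, from 5974 against 5255 bp in HMGCS1 to 6310 against 1563 bp in FDPS. INSIG1 has 5738 against 2851 bp, SQLE 4983 against 2973 bp and SREBF2 9119 against 5853 bp. The order of the listed means is therefore given as a description of the table and not as an order of transcript levels. In PEFs it was HMGCS1, SQLE, INSIG1, FDFT1, SREBF2 and DHCR7, and in piPSCs SREBF2, HMGCS1, SQLE, FDFT1, DHCR7 and INSIG1, with FDPS left out. A gene keeps its length in both groups, so the ratio of its FPKM means does not depend on it. The log2 fold changes depend on it through the pseudocount, which shrinks the change of a low gene such as FDPS. The place of a gene among the others, and a change of that place, do depend on the lengths used. By these means INSIG1 stood at rank 3 in PEFs and rank 6 in piPSCs, where its values overlapped those of DHCR7. Single libraries differed from this order. In PEF5 and PEF7 INSIG1 lay below HMGCS1, SQLE, SREBF2 and FDFT1, and in PEF8 above all of them. In piPSC8 it lay above FDFT1 and DHCR7.

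Each piPSC line was also set against the PEF line it came from, as the difference of log2(FPKM + 1). With 1 library against 1, these ratios have no replicate check. All 7 genes were lower in each of the 3 lines, as were 31.6% of tested genes. The median ratio of the set was -1.03 in line 5, -1.94 in line 7 and -0.67 in line 8, beside medians of 0.21, 0.24 and 0.08 over all tested genes. On the scale of log2(FPKM + 1), all 7 genes were at least 2-fold lower in line 7 (17.2% of tested genes). In line 5 it was 4 (18.6%) and in line 8 it was 3 (23.8%). FDPS is not among these in lines 5 and 8 (-0.65 and -0.54), where the pseudocount shrinks the change of so low a gene. INSIG1 had the lowest ratio in every line, with -2.17 in line 5, -3.01 in line 7 and -2.34 in line 8. FDFT1 followed, with -1.95, -2.90 and -1.74. The spread between lines was widest in HMGCS1, from -2.37 in line 7 to -0.67 in line 8. DHCR7 had the smallest ratio of the set in line 5 (-0.53), but its ratio in line 8 (-1.56) was exceeded in size there only by those of INSIG1 and FDFT1. PEF7 was the highest PEF library in 6 genes and piPSC7 the lowest piPSC library in 6, so the wide ratios of line 7 came from both of its libraries.

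The rest of the pathway did not move as one. The lists held 53 further genes, 50 of them tested, with a median log2 fold change of -0.55. Of these, 22 were lower in piPSCs, 2 were higher and 26 did not pass the test. Over all tested genes, limma called 21.5% lower and 30.3% higher, with a median of 0.20. These shares also stand beside the counts of the single lists below. Of the 7 other mevalonate and isoprenoid enzymes, none passed the test, and their median log2 fold change was -0.24. IDI1, which isomerises isopentenyl diphosphate, was at -0.81 (limma adjusted p = 0.11). MVK and PMVK, the kinases that follow on mevalonate, were at -0.56 and 0.07, and ACAT2, at the entry of the pathway, at -0.05. HMGCS1 and FDPS were thus the called members of a list whose other genes did not pass the test, a difference that was not itself tested.

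Of the 8 other sterol enzymes tested, 4 were lower in piPSCs and none was higher. SC5D, the desaturase that makes the substrate of DHCR7, fell from 43.3 ± 12.3 to 8.10 ± 1.40 FPKM (log2 fold change -2.26, limma adjusted p = 0.000765). TM7SF2, a sterol reductase with 17, 27 and 12 fragments in piPSCs, fell with a log2 fold change of -2.16, or of -3.26 by voom. MSMO1, a methylsterol oxidase, and CYP51A1, the lanosterol demethylase, followed with -1.69 and -1.58. Among those that did not pass the test, NSDHL, HSD17B7 and EBP had log2 fold changes of -0.38, -0.36 and -0.32. LSS was not analysed here.

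**Figure D3:**
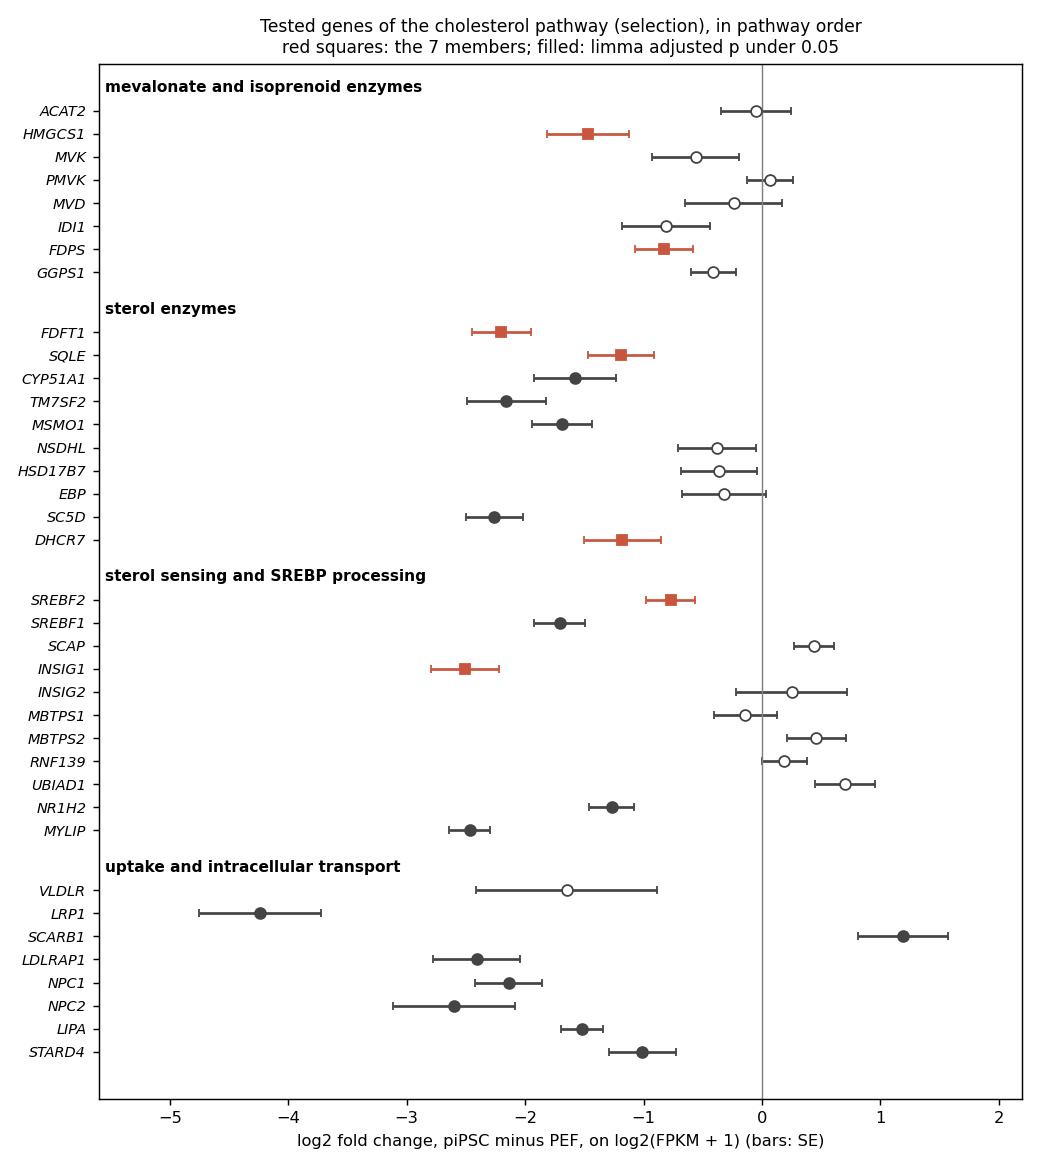
Log2 fold changes (x axis, piPSC minus PEF, on log2(FPKM + 1), bars show the SE of limma) of genes from 4 pathway lists, a selection of those tested, with the genes of each list down the y axis. Red squares mark the 7 genes of the set, which are all filled (adjusted p under 0.05), and the open points include ACAT2 at -0.05 and SCAP at 0.44.

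INSIG1 was also set against INSIG2, its paralogue, as 1 of 3 ratios chosen after their values were seen. The log2 ratio of INSIG1 to INSIG2 was 2.54, 2.73 and 3.09 in the PEFs of lines 5, 7 and 8, and -0.18, -1.31 and 1.59 in their piPSCs. The groups did not overlap, and the piPSCs were spread more widely than the PEFs. INSIG2 itself had 5.85, 5.90 and 5.72 FPKM in PEF5, PEF7 and PEF8. It had 9.02, 13.1 and 2.76 in piPSC5, piPSC7 and piPSC8, the last from 91 fragments. The spread of the ratio in piPSCs is therefore not that of INSIG1 alone. The means were 2.79 ± 0.277 in PEFs and 0.03 ± 1.46 in piPSCs, a difference of -2.75. The exact two-sided permutation test gave p = 0.1, raw and adjusted over the 3 ratios, the smallest value that 3 libraries against 3 allow. A scaling of the libraries cancels out of such a ratio, apart from the pseudocount.

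Of the 10 other tested genes of sterol sensing and SREBP processing, 4 were lower and none was higher. MYLIP, a ubiquitin ligase of lipoprotein receptors, fell from 25.1 ± 1.74 to 3.73 ± 0.637 FPKM (log2 fold change -2.47, limma adjusted p = 0.00025). SREBF1, the paralogue of SREBF2, fell by 1.71 on the log2 scale from 38.0 ± 7.23 FPKM, and NR1H2, an oxysterol receptor, fell by 1.27. SCAP and MBTPS2, which carry and cleave SREBPs, had 0.44 and 0.46 and did not pass the test, nor did MBTPS1 (-0.14) and INSIG2 (0.25). NR1H3 was below the filter.

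Of the 10 genes of uptake and intracellular transport, 8 were lower, SCARB1 was higher and VLDLR (-1.65, limma adjusted p = 0.11) did not pass the test. LRP1, a large endocytic receptor, fell from 115 ± 41.4 to 5.77 ± 3.58 FPKM, and NPC2, which moves cholesterol out of lysosomes, from 282.1 ± 59.6 to 54.6 ± 43.0. SCARB1, a receptor for HDL, had 51.8, 37.0 and 17.8 FPKM in PEF5, PEF7 and PEF8, and 73.7, 64.2 and 91.3 in the piPSCs of these lines (log2 fold change 1.19, limma adjusted p = 0.037), but the call was lost in 9 of 16 alternatives, with an adjusted p of up to 0.103.

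In efflux and storage, 3 of 6 tested genes were lower and none was higher. APOE, the apolipoprotein, fell from 88.7 ± 38.1 to 4.05 ± 3.56 FPKM (log2 fold change -4.44, limma adjusted p = 0.00317). ABCG1, a sterol exporter, had 0, 1 and 0 fragments in piPSCs against 3.19 ± 0.929 FPKM in PEFs, at least 116-fold lower with 3 fragments as the floor in each library. CH25H, which makes 25-hydroxycholesterol, had 2, 6 and 7 fragments in piPSCs and a log2 fold change of -1.63, or of -3.23 with a pseudocount of 0.1 and -3.74 by voom, a call lost without each of piPSC5, piPSC7 and piPSC8. CYP27A1 was below the filter. In fatty acid synthesis, a neighbouring pathway that SREBF1 controls, 3 of 9 genes were lower and 1 was higher, with a median of 0.03. FADS2, a desaturase, fell from 215.0 ± 26.9 to 28.7 ± 5.36 FPKM, ME1, which makes NADPH, by 1.44 on the log2 scale and ACSS2, which activates acetate, by 1.14. ACSS2 lost the call in 9 of 16 alternatives. ELOVL6, an elongase, rose by 1.40 (limma adjusted p = 0.0147, and 0.0542 without line 8), whereas FASN (0.43), SCD (0.03) and ACACA (0.34) did not pass the test.

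The pattern of the set over the 6 libraries, taken as the mean of its standardised log2 values, was compared with that of every tested gene. Pearson's r of the members with this mean, which includes each of them and so raises r, was between 0.893 for DHCR7 and 0.991 for FDFT1. Among the genes outside the set with the highest r were ADGRA2 (0.996), SGCD (0.994), NAPRT (0.993) and FAM180A (0.993). Of the 12428 tested genes, members included, 401 (3.23%) reached 0.95. With 6 libraries in 2 groups, such values mostly describe the difference between the groups. ADGRA2 had 27.4, 41.5 and 11.7 FPKM in the PEFs of lines 5, 7 and 8 and between 0.169 and 1.499 in piPSCs. PEF7 was its highest and PEF8 its lowest PEF library, as in most of the set. ADGRA2 was picked for its likeness over these same libraries, so this shared order is not a separate observation.

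The size of the decreases differed between rescalings of the libraries, and their direction did not. FPKM summed to between 337074 and 348943 in PEFs and between 420498 and 437853 in piPSCs. Over all tested genes, limma called 3763 higher and 2667 lower as deposited, 2826 and 3256 after rescaling libraries by their median ratio, and 2627 and 3383 after rescaling to equal sums. The median log2 fold change of the set moved from -1.19 to -1.46 and -1.56 under these rescalings, while that of all tested genes moved from 0.20 to -0.01 and -0.06. The second also raised every library to a sum of 1000000 with the pseudocount still 1, so the weight of the pseudocount fell together with the change of scale. All 7 genes were called lower under both. The plot of the alternatives shows that INSIG1, FDFT1, HMGCS1 and SQLE kept the call in all 16.

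**Figure D4:**
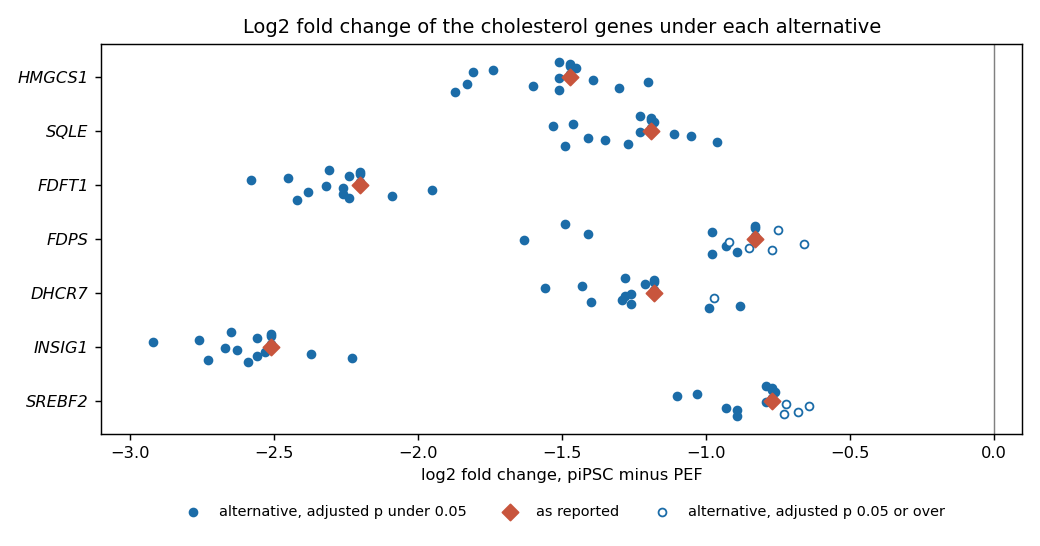
Log2 fold change (x axis, piPSC minus PEF) of the 7 genes (y axis) as reported (diamonds) and under 16 alternatives (circles, filled at an adjusted p under 0.05). All points are below 0, and the open circles belong to FDPS (6), SREBF2 (4) and DHCR7 (1).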

How the data were processed

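Poly-A RNA was sequenced in pairs of 150 bp, 1 library per line. The authors deposited FPKM values for 18007 genes of Sscrofa11.1. The submitters' processing notes name Bowtie2 2.2.3, HISAT2 2.1.0 and HTSeq 0.6.0, without roles; strand settings and annotation release are not given in the sources used here. Every value was a whole number of fragments given the gene's length and the library's total (within at most 0.02 of a fragment), and lengths and fragments were recovered for all 18007 genes; intervals and floors cover counting error only. Symbols missing for 902 identifiers came from a table of gene names.

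The groups were compared with limma 3.58.1 in R 4.3.3 (lmFit, eBayes with a trend) on log2(FPKM + 1) over the 12428 genes that averaged 0.5 FPKM or more; tests were two-sided, Benjamini-Hochberg adjustment covered all 12428, and a gene was called at an adjusted p under 0.05. The fit was unpaired, as in the study's general statistics, whereas its RNA comparison set each piPSC line against its own PEF line. On simulated data, in which 191 of 12120 tested genes were changed, the fit called 40 of 47 genes with a true log2 fold change of -2 and 11 of 54 with -1. It called 12 of 47 with 1 and 43 of 43 with 2. Beside these 106 changed genes it called 12 unchanged genes, a larger share of false calls than the threshold of 0.05 aims at. Smaller changes were thus often missed there. The simulation changed a far smaller share of genes than was called in the data, with the same dispersion for all genes and no effect of line. Its rates therefore do not carry over to these data. A gene that did not pass the test is in any case not shown to be unchanged. With 3 libraries a group, the p-values set the difference between the groups against the spread between lines, which eBayes moderates over all genes. Since the PEFs are described as coming from a Meishan sow mated to a Large White boar, differences between litters are not covered. Lines pair the libraries, since each piPSC line came from the PEF line of its number; the libraries' departures from their group means had correlations of 0.0921, 0.0946 and 0.08 within lines 5, 7 and 8, and of -0.121 to 0.0553 between lines. A replicate block was an alternative. The others were a pseudocount of 0.1, no filter, a filter at 1 FPKM, quantile normalization, both rescalings, no trend, voom on the fragments and each library left out; leaving out line 8 was chosen after seeing the data.

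The members and lists were chosen with earlier results of these data known. Named genes are the members, up to 3 called genes with the largest change each way in each list, and the 5 genes most like the members; other genes of the lists, CYP51A1 among them, were named after their values were seen. Some genes that these rules would name, 2 of 3 ratios and 1 promoter sequence are not reported here. Promoters came from the RefSeq reference of Sscrofa11.1. Figures were drawn in Python 3.11.15 with matplotlib 3.10.9.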

Additional observations from a re-analysis of the deposited data

How the results depend on the processing

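Under all 16 alternatives the 7 genes kept a negative log2 fold change. The number of them called lower ranged from 4 (without PEF7) to 7 over the fits that each left out 1 library, and was 6 or 7 otherwise. FDPS lost the call with quantile normalization (-0.75) and with the replicate block (-0.83), and had between -0.93 and -0.66 with 1 library left out. DHCR7 ran from -1.40 to -0.88 and SREBF2 from -0.93 to -0.64 in those fits. The replicate block changed no other call of a member. Of the other pathway genes, 2 were called higher, but 1 without a filter, under each rescaling and with the replicate block, 0 without line 8, and between 1 and 3 with 1 library left out. Why these calls changed was not tested, beyond the fewer libraries of the fits that leave some out. Of 304 values under the alternatives, for 19 other genes named here, 282 kept their side of the threshold, 22 lost the call and 0 changed sign. Low fragment numbers in piPSCs limit the precision of FDPS, TM7SF2, ABCG1, CH25H and, in piPSC8, APOE.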
